A study of Mus musculus with 4 samples.

Results

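The comparison described here set transplanted LSK cells heterozygous for loss of Sf3b1 (Sf3b1+/-) against transplanted wild-type LSK cells, using 2 of the 4 arrays of the series, 1 per genotype. LSK cells are the marrow fraction that lacks mature lineage antigens and carries c-Kit and Sca-1, and they hold hematopoietic stem cells and multipotent progenitors. The 2 arrays were chosen by their titles, and the transplanted cells were CD45.2+ donor LSK cells of C57BL/6 background sorted from lethally irradiated CD45.1+ hosts 9 months after transfer of whole marrow. The donor marrow was wild type for one array and Sf3b1+/- for the other, the hosts were treated alike, and per the design text the transfer was made to set aside indirect effects of the marrow environment. The other pair of arrays measured LSK cells taken directly from C57BL/6 mice aged 20 weeks, wild type or Sf3b1+/-, and is called native below. All Sf3b1+/- cells kept 1 intact allele, since embryos without any die before implantation. The design text counts 5 recipients. The number of animals pooled for an array was not given in the sources used here.

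The Sf3b1 protein is the biggest member of the SF3b complex, through which the U2 small nuclear ribonucleoprotein grips the intron branch site during splicing. Stem cells at the top of the LSK fraction divide rarely and give rise to multipotent progenitors, which are then primed toward lymphoid, myeloid or megakaryocyte and erythroid fates. With age the stem cell pool is known to shift toward platelet-primed cells with fewer lymphoid-primed descendants.

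Each array was scaled so that the 75th percentile of its detected probes equals 1000 units, and a difference is the log2 signal of Sf3b1+/- minus that of wild type. With 1 array per group no difference has a replicate check, so sizes are given without p-values. Among 20886 named genes, 13033 were well above background, in the scanner software's call, on at least 2 of the 4 arrays and were compared; 12721 of them were so on both transplanted arrays, 188 on the Sf3b1+/- array alone and 83 on the wild-type array alone. The scanner software's error model put the error of a difference at 0.20 in the median gene. It covers the array measurement and leaves out the spread between animals. At least 2-fold higher in Sf3b1+/- were 267 genes (2.05%), and at least 2-fold lower were 169 (1.3%). At least 1.5-fold higher were 1016 (7.8%), and 838 were at least 1.5-fold lower (6.43%). These shares are the background for every count of list members below. The median over all compared genes was 0.01, and the robust SD of the differences was 0.38, against 0.24 in the native pair. The shares of higher and lower genes depended on the scaling: with spike-in scaling 2133 genes were at least 2-fold higher and 23 lower, since the median of all genes then lay at 0.62, and with cyclic loess the counts were 362 and 118. The statements below are therefore relative to the bulk of each array. Fewer cells of a type and less RNA per cell cannot be told apart in such bulk samples.

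**Figure D1:**
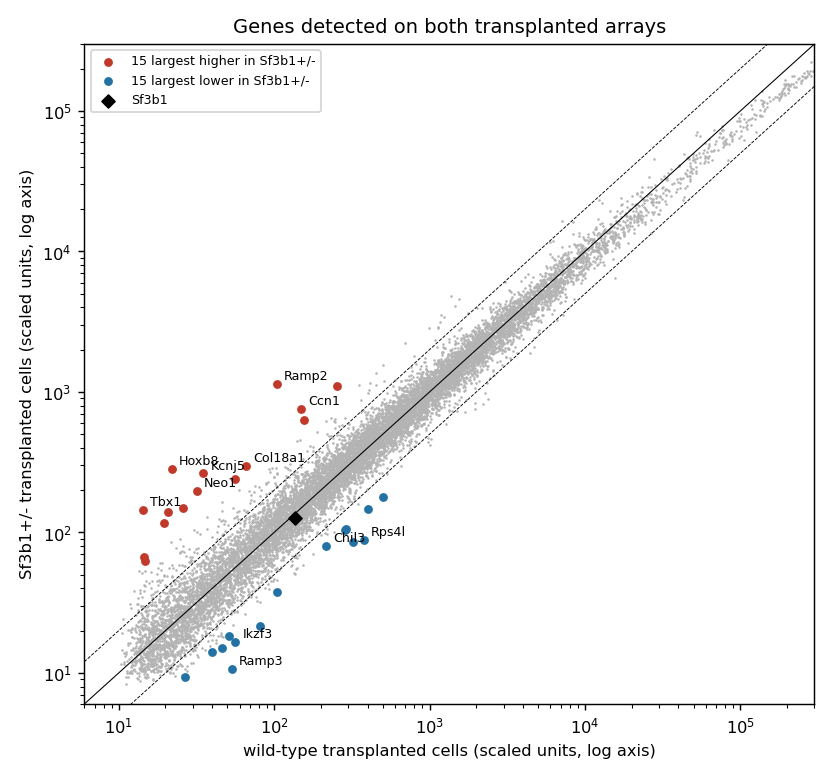
Scaled signal of each gene detected on both transplanted arrays, wild type on the horizontal and Sf3b1+/- on the vertical axis, both logarithmic, with equality as a solid line and 2-fold limits dashed. Red and blue points are the 15 genes furthest apart in each direction, led by Hoxb8 (22.0 against 284 units) and Ramp3 (53.5 against 10.68 units), and the black diamond is Sf3b1.

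The signal level moved with the difference. Among the genes detected on both transplanted arrays, split into 5 groups of equal size by signal, the dimmest group (median 27.4 units) held 106 of the genes at least 2-fold higher and 64 of those at least 2-fold lower. The brightest group (median 4018 units) held 3 and 5. At the very top of the range the cloud lay below the line of equality: 298 genes with a mean of at least 20000 units had a median difference of -0.36, and 260 of them were below 0. In the native pair the same genes had a median of -0.20. For bright genes named below, this shift is part of their difference, and the value after cyclic loess, which bends each array to remove such trends, is given beside it where it matters.

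The targeted gene was close between the genotypes. Sf3b1 read 137 units in wild-type and 127 units in Sf3b1+/- transplanted cells, a difference of -0.11 with a scanner error of 0.21, and 219 and 165 units in native cells. The transplanted pair therefore did not separate the genotypes at this probe. The deleted part of the gene was not given in the sources used here, so the probe may lie outside it. Of the 18 measured genes of SF3b, SF3a and the U2 particle, 17 lay within 1.5-fold and the list median was 0.02. The exception was Sf3b6, the subunit that touches the branch-point adenosine, with 5252 units in wild-type and 3144 units in Sf3b1+/- cells, a difference of -0.74. All 33 measured SR protein and hnRNP genes lay within 1.5-fold, from Srrm2 at -0.50 to Clk2 at 0.49.

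While protein genes of the splicing machinery were near equality, the signals of its small nuclear RNAs were lower in Sf3b1+/- cells. Rnu2-10, a gene of the U2 RNA itself, read 2199 units in wild-type and 820 units in Sf3b1+/- transplanted cells, a 2.68-fold difference, against 2216 and 1373 units in native cells. Rnu1b6, of the U1 RNA that recognises the upstream splice site, read 8524 against 4581 units, a difference of -0.90. Rnu12, of the U12 RNA that serves the minor spliceosome, read 12534 against 8782 units, a difference of -0.51. Both are bright. The 1074 genes with a mean of at least 5000 units over the 4 arrays, which include both, had a median of -0.17. The 547 genes with a mean of at least 10000 units, which include neither, had -0.26.

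Other short structured RNAs had the same direction. Rnu3b1, of the U3 RNA that guides ribosomal RNA processing, read 1968 against 762 units. The small nucleolar RNAs Snora74a and Snora47 read 128 against 57.8 units and 45.4 against 18.6 units. Rmrp, the RNA of a ribonuclease that cuts ribosomal RNA precursors, read 534 against 259 units, and Terc, the telomerase RNA template, read 28.8 against 16.3 units. In all, 8 of 8 measured genes that RefSeq classes as small nuclear, small nucleolar, RNase MRP or telomerase RNA were lower in transplanted Sf3b1+/- cells, 7 of them by at least 1.5-fold, with a median of -1.09. In native cells 7 of the 8 were below 0, with a median of -0.27. This group was chosen after its values were seen. RNA was labelled from column-purified total RNA, and how well such short RNAs without a poly(A) tail were recovered on each array was not tested.

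**Figure D2:**
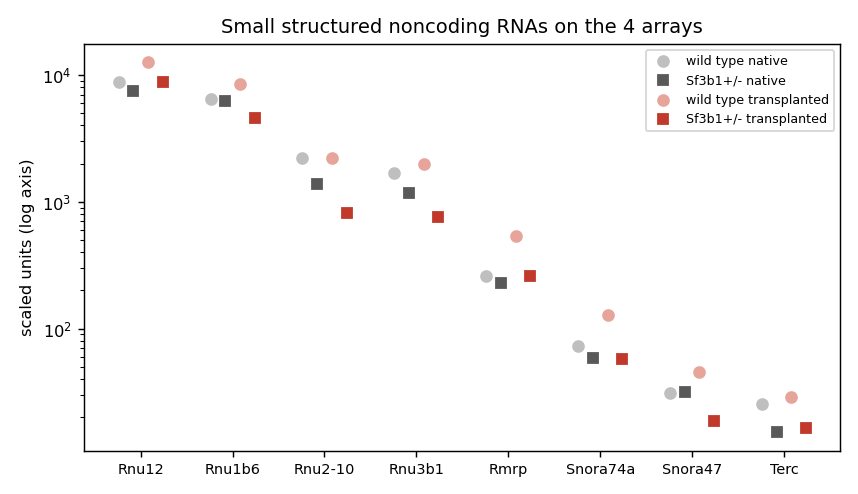
Scaled signal (logarithmic axis) of the 8 small structured noncoding RNA genes on each of the 4 arrays. Circles are wild type and squares Sf3b1+/-, grey for native and red for transplanted cells; in every gene the red square lies below the red circle, by 2.68-fold for Rnu2-10.

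Probes that did not match a coding RefSeq gene also had lower medians. Probes named only by genome position had a median of -0.29 over 5217 compared, of which 47 lay 2-fold or more above wild type and 246 as far below. Other RefSeq noncoding accessions had a median of -0.25 over 712, small RNAs included, while the remaining RefSeq probes had 0.01. The 5162 compared probes that are of neither kind and matched no RefSeq symbol had -0.20, with 81 at least 2-fold higher against 167 lower. A single position-named probe stood out by both size and brightness. It lies on the reverse strand of chr6:90915489-90940052 in build mm9 and read 26820 units in wild-type and 3495 units in Sf3b1+/- transplanted cells, a 7.67-fold difference, against 5316 and 5450 units in native cells. The wild-type transplanted array is therefore the one that stands apart from the other 3 at this probe. The next largest were 4.55-fold lower at chr4:131905739-131910814 on the reverse strand (70.4 against 15.5 units) and 3.81-fold lower at chr8:26212577-26218527 on the forward strand (34.8 against 9.14 units). In the other direction, chr14:70483555-70484159 on the forward strand read 34.5 against 119 units and chr9:51905865-51911474 on the reverse strand 27.6 against 93.5 units. The next was chr17:88466300-88495175 on the reverse strand with 160 against 495 units. Among named noncoding transcripts 9230102O04Rik was the furthest higher, at 21.7 against 86.2 units.

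Genes of the Hoxb cluster were higher in transplanted Sf3b1+/- cells. Hox genes encode homeodomain factors that set position in the embryo, and several of them mark and support immature blood cells. All 7 measured Hoxb genes were at least 1.5-fold higher, with a median of 1.58, and in native cells none was 1.5-fold apart and their median was -0.02. Hoxb8 read 22.0 units in wild-type and 284 units in Sf3b1+/- cells, a 12.9-fold difference and the largest of any gene detected on both transplanted arrays. Hoxb9 read 14.6 against 66.8 units. Neither Hoxb8 nor Hoxb9 was well above background on a native array. Hoxb6 read 56.4 against 241 units and Hoxb2 96.2 against 288 units. Hoxb5, which marks long-term stem cells, read 45.7 against 121 units, while the native arrays read 29.5 and 34.4 units.

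The remaining measured Hoxb genes were closer to equality. Hoxb3 read 24.1 against 44.9 units, and Hoxb4, a known driver of stem cell expansion, read 216 against 331 units, a difference of 0.61 just past 1.5-fold. Hoxb1, Hoxb7 and Hoxb13 were on the array and not detected on enough arrays to compare. After normexp background correction the Hoxb median relative to all genes was 1.14, still the highest of the 56 lists described here. The Hoxa cluster did not share this pattern: of 9 measured genes 1 was at least 1.5-fold higher and none lower, and the median was 0.14. Hoxa9, the most studied Hoxa gene of blood progenitors, differed by 0.25. Hoxa10, at -0.17, was the only one of the 9 below 0. From the Hoxc and Hoxd clusters a single gene could be compared, Hoxc6, with 20.0 against 22.6 units.

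**Figure D3:**
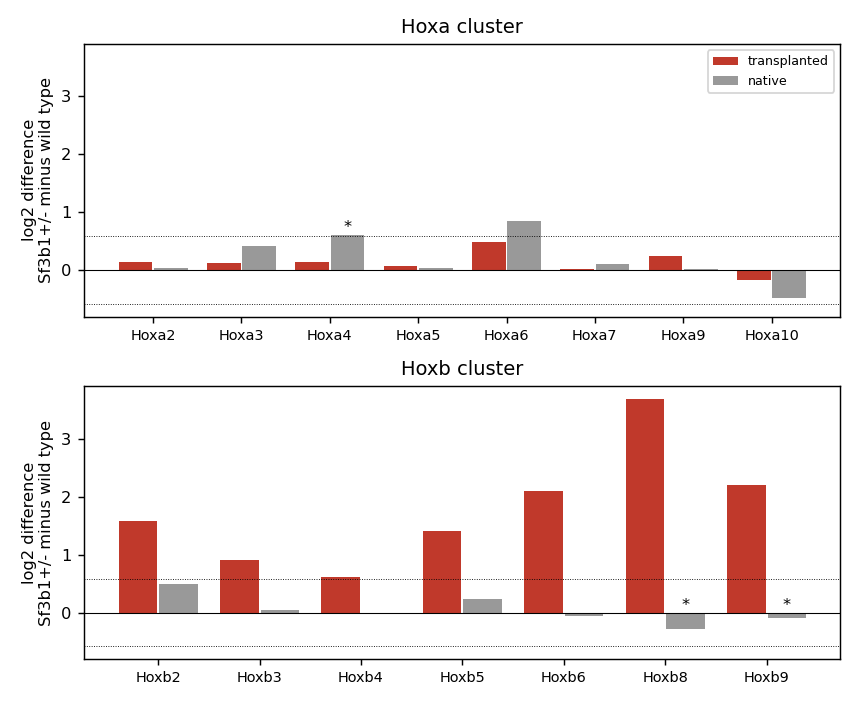
Log2 differences, Sf3b1+/- minus wild type, of 8 of the 9 compared Hoxa genes (top) and the 7 compared Hoxb genes (bottom) in transplanted (red) and native (grey) cells, in order of gene number; dotted lines mark 1.5-fold, and an asterisk marks a native pair not well above background on both arrays. All 7 red bars of the Hoxb cluster pass the upper dotted line, from 0.61 for Hoxb4 to 3.69 for Hoxb8.

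Genes that mark the most immature stem cells were higher as a group. Of 26 measured surface and receptor genes, 13 lay at least 1.5-fold above wild type and 1 below, with a median of 0.54 against -0.02 in native cells. Procr, the endothelial protein C receptor used to sort stem cells, read 1228 against 2192 units. Slamf1, the CD150 antigen, read 104 against 264 units, and Tek, the receptor of angiopoietin, 19.1 against 45.6 units. Sult1a1, a sulfotransferase gene, read 503 against 1546 units while both native arrays read 133 units. Fgfr3 differed by 1.07, Tgfbr3 by 0.90 and Ghr by 0.84. The exception was Lifr, with 16.1 against 10.4 units.

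The genes behind the sort gate were near equality. Of 6 gate and general marker genes, Ly6a, which encodes Sca-1, was the only one 1.5-fold apart, at 1199 against 1821 units, and the median was 0.17.

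Among 39 measured transcription factor and chromatin genes of stem cells, 12 were at least 1.5-fold higher and 1 lower, with a median of 0.21. Tcf15, a bHLH factor of quiescent stem cells, read 147 against 452 units, and its native arrays read 121 and 129 units. Nkx2-3, a homeobox gene, read 89.3 against 223 units. Gfi1b, a repressor needed for the megakaryocyte and erythroid lineages, read 816 against 1591 units and was also higher in native cells (794 against 1304 units). Gata2 read 2577 against 4300 units, Gata3 263 against 574 units and Prdm16 58.1 against 100.2 units.

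The genes described as higher in old stem cells formed the list with the most members apart. Of 40 measured, 28 were at least 1.5-fold higher, none was 1.5-fold lower, and the median was 0.85, against -0.01 in native cells. Vwf, which encodes von Willebrand factor and marks platelet-primed stem cells, read 1371 against 4851 units, with 903 and 1259 units in native cells. Nupr1, a stress-induced chromatin protein gene, read 1544 against 4595 units, and Cavin2, a caveolar coat gene, 1466 against 4078 units. Gstm2, a glutathione transferase gene, read 452 against 1375 units. Tgm2, the tissue transglutaminase gene, read 1134 against 2910 units, and Clu, the clusterin chaperone gene, 1141 against 2861 units. Jam2, an adhesion molecule gene, read 153 against 334 units. Tm4sf1 was about as low on both native arrays (28.8 and 27.4 units) and read 516 against 819 units after transplantation. Aldh1a1 read 3252 against 5313 units. The lists for stem cell surface, old stem cells and megakaryocytes share genes such as Slamf1, Itga2b and Vwf, so their counts are not separate.

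Dormant stem cells are known for retinoic acid signalling, which is read out by Rarb and Cyp26b1. The promoter of Rarb is shown because its retinoic acid response element is a textbook example and Rarb was among the genes apart. In the 250 bases before the annotated start (RefSeq, GRCm38.p6, chr14:16575477-16575726, minus strand) the capitals mark the element, a pair of half-sites spelled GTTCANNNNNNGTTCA, from 52 to 37 bases before the start.
Rarb: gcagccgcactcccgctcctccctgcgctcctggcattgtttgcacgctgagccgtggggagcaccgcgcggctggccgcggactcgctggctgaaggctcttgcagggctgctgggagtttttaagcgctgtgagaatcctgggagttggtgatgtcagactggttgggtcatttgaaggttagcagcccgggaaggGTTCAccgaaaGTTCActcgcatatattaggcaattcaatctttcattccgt
Searched on both strands, this motif was in 22 of 32851 RefSeq promoter windows of that length (0.067%). Of the measured aldehyde and retinoid genes, 9 of 13 had a window in the table, and Rarb was the only one with a match.

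Rarb, the retinoic acid receptor beta gene, read 54.7 units in wild-type and 149 units in Sf3b1+/- transplanted cells, and 53.1 against 31.8 units in native cells. Cyp26b1, the enzyme that degrades retinoic acid, read 407 against 1028 units in transplanted and 141 against 67.7 units in native cells. Both genes thus lay in opposite directions in the 2 settings. Rarg, the receptor gamma gene, read 227 against 490 units, and Rdh10, which makes retinal from retinol, 23.2 against 46.2 units. Rara, the receptor alpha gene, was lower at 1234 against 777 units, as in native cells (1111 against 701 units). Crabp2, a carrier of retinoic acid, was lower at 187 against 124 units. Over the 13 measured aldehyde and retinoid genes 6 were at least 1.5-fold higher and 3 lower, with a median of 0.52 that depended on the probe choice: it was 0.15 above all genes with the median over each gene's probes.

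Other genes linked to dormancy were also higher. Neo1, the neogenin receptor gene, read 31.8 against 198 units and was not well above background on either native array. Gprc5c, the orphan receptor used to mark dormant stem cells, read 18.9 against 60.6 units and was likewise below the detection call in native cells. Ndn read 31.8 against 58.0 units, and Cdkn1c, the p57 cell cycle inhibitor gene, 208 against 320 units. Over 22 measured dormancy genes 8 were at least 1.5-fold higher and 2 lower, with a median of 0.36. The lower genes were Btg1, at 13137 against 8416 units, and Ccng2, at 85.7 against 56.2 units. Neither the G2 and mitosis list (30 genes, median 0.18) nor the S phase list (29 genes, median 0.04) held a gene 1.5-fold lower, and each was close to its native median. Mycn, a growth-promoting factor gene, read 241 against 623 units and was also higher in native cells, at 305 against 720 units. Ccnd1, the cyclin D1 gene, read 760 against 1323 units.

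**Figure D4:**
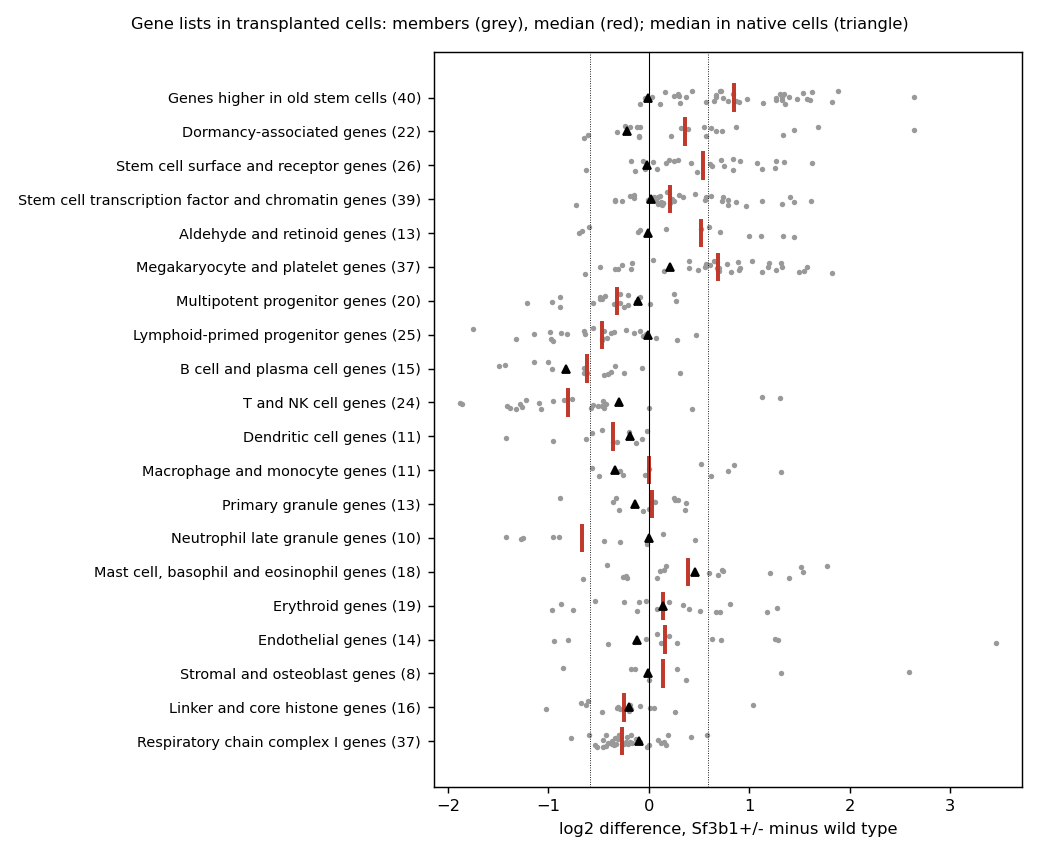
Log2 differences, Sf3b1+/- minus wild type, of the measured members (grey points) of 20 gene lists in transplanted cells, with each list's median as a red bar and its median in native cells as a black triangle. Numbers in brackets are members compared, dotted lines mark 1.5-fold, and the red bars run from 0.85 for genes higher in old stem cells to -0.80 for T and NK cell genes.

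Megakaryocyte and platelet genes were higher, and here the native median had the same direction. Of 37 measured, 23 were at least 1.5-fold higher and Thbs1 alone was lower (91.3 against 58.5 units), with a median of 0.68 and a native median of 0.21. In native cells 9 of the 37 were at least 1.5-fold higher and 3 lower. The promoter of Gp1ba is shown because GATA factors are known regulators of platelet glycoprotein genes. In the 250 bases before its start (RefSeq, GRCm38.p6, chr11:70638872-70639121, plus strand) the capitals mark 2 matches to TGATAA, 1 on each strand, which do not overlap.
Gp1ba: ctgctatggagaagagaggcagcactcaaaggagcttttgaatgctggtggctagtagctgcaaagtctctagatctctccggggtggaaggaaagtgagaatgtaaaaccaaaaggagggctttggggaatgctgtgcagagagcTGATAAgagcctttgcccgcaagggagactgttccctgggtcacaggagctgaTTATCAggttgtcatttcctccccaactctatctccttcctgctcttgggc
On either strand TGATAA was in 7.94% of all promoter windows and in 3 of the 31 windows of measured megakaryocyte genes (9.68%), so the list held it about as often as promoters in general.

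Gp1ba, the von Willebrand factor binding chain of the platelet receptor, read 63.8 units in wild-type and 146 units in Sf3b1+/- transplanted cells, and 76.1 against 167 units in native cells. Its partners Gp5 (91.3 against 229 units), Gp1bb (70.1 against 132 units) and Gp9 (932 against 1738 units) were higher as well. All 4 genes of the complex were therefore at least 1.5-fold higher. The integrin genes Itga2b and Itgb3, which together form the fibrinogen receptor, read 405 against 976 units and 600 against 1220 units. Of the platelet granule chemokines, Ppbp read 44.5 against 125 units and Pf4 12893 against 22158 units. Pf4 is bright, and its difference of 0.78 was 0.87 above all genes after cyclic loess. Mmrn1, the multimerin gene, read 455 against 1128 units and was equal in native cells (639 and 643 units). Alox12, the platelet lipoxygenase gene, read 18.6 against 54.2 units, and Tbxa2r, the thromboxane receptor gene, 426 against 787 units.

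Eosinophil granule genes followed the same pattern in both settings. Epx, eosinophil peroxidase, read 30.3 against 104 units in transplanted and 54.8 against 123 units in native cells. Ear1, Ear2, Ear10 and Rnase2a, of the eosinophil ribonuclease family whose probes may read more than 1 member, differed by 1.53, 1.51, 1.21 and 1.40. Prg2, the major basic protein gene, read 738 against 1225 units. Over 18 measured mast cell, basophil and eosinophil genes 9 were at least 1.5-fold higher and Tpsb2, a mast cell tryptase gene, was lower at 104 against 66.2 units. The medians were 0.39 in transplanted and 0.46 in native cells. Erythroid genes were mixed, with 5 of 19 at least 1.5-fold higher and 3 lower. Hba-a2, an alpha-globin gene, read 246 against 555 units, and Epor, the erythropoietin receptor gene, 206 against 336 units. Rhd and Car1, of the red cell membrane and cytoplasm, were lower at 80.1 against 41.1 units and 306 against 167 units.

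Genes of multipotent and lymphoid-primed progenitors were lower. Of 25 measured lymphoid-primed genes, 10 were at least 1.5-fold lower and none was higher, with a median of -0.46 against -0.01 in native cells. Dntt, which adds bases at antigen receptor joints, read 26671 units in wild-type and 13447 units in Sf3b1+/- transplanted cells, and 29253 and 28364 units in native cells. Its difference of -0.99 was -0.88 relative to all genes after cyclic loess. Il7r, the interleukin-7 receptor gene, read 177 against 70.4 units. Ikzf3, the Aiolos factor gene, read 56.1 against 16.7 units, while native cells read 20.7 and 23.2 units. Blnk, the B cell adaptor gene, was lower in both settings, at 1020 against 463 units and 2577 against 1132 units. Ly6d, which marks B-primed progenitors, read 2442 against 1263 units, and its native arrays were equal at 940 and 953 units. The chemokine receptor genes Ccr7 and Ccr9 read 254 against 138 units and 77.9 against 44.2 units.

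Of 20 measured multipotent progenitor genes, 4 were at least 1.5-fold lower and none higher, with a median of -0.32. Wfdc17 read 2285 against 983 units and Evi2a 1430 against 776 units. Cd33 read 77.4 against 39.7 units. Plac8, a bright gene of myeloid and lymphoid progenitors, read 82753 against 44724 units, a difference of -0.89. After quantile normalization it was -0.65 relative to all genes.

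**Figure D5:**
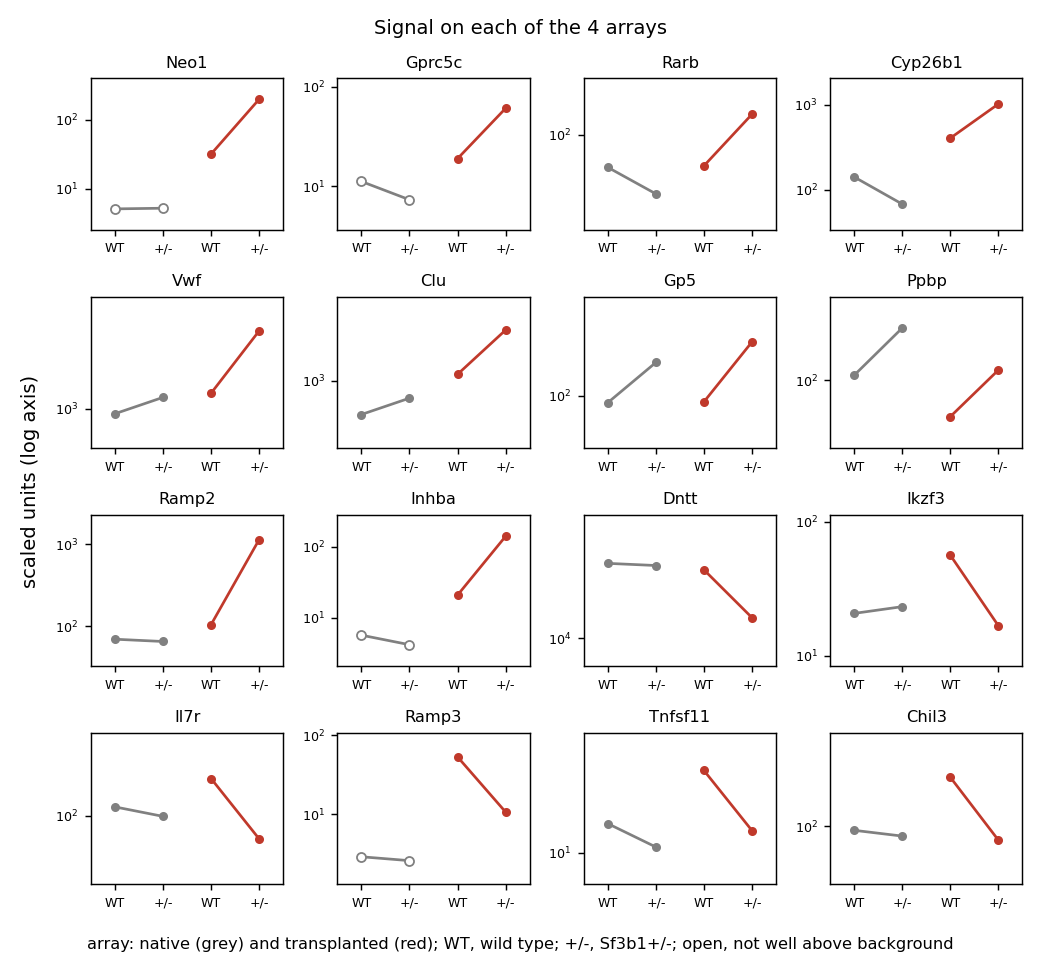
Scaled signal (logarithmic axes, each panel with its own range) of 16 genes on the 4 arrays, with native cells in grey and transplanted cells in red, wild type left and Sf3b1+/- right within each pair; open circles were not well above background. The genes of the upper rows are higher in transplanted Sf3b1+/- cells, such as Vwf at 1371 against 4851 units, and the last 6 are lower, such as Il7r at 177 against 70.4 units.

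Markers of mature lymphoid cells, which the sort gate is set to leave out, lay on the same side as the lymphoid-primed list. The 12 measured mature lineage antigen genes had a median of -0.44 and a native median of -0.40. Of these, 5 were at least 1.5-fold lower and 1 was higher. Of 24 measured T and NK cell genes 13 were at least 1.5-fold lower and 2 were higher, with a median of -0.80 and a native median of -0.30. Zap70, a T cell kinase gene, read 154 against 59.1 units, Klrd1, the CD94 gene, 136 against 51.0 units and Gzma, a granzyme gene, 141 against 65.7 units. The T cell receptor genes Cd3d and Cd3g were near the background, at 27.4 against 11.3 units and 16.0 against 4.42 units. Gata3 and Klrb1c, also expressed by stem cells, were the 2 higher members. For B cells and plasma cells, the 15 measured genes had a median of -0.61, with 8 at least 1.5-fold lower. The native median was -0.82, with 9 lower. Vpreb1, of the surrogate light chain, read 467 against 305 units.

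Neutrophil genes of the late granules were lower, and those of the primary granules were not. Of 10 measured late granule genes 5 were at least 1.5-fold lower and none higher, with a median of -0.67, against 0.00 in native cells. S100a8 and S100a9, which encode the calprotectin subunits, read 1968 against 828 units and 5001 against 2690 units. Camp, the cathelicidin gene, read 1012 against 419 units and Chil3 216 against 80.7 units. For each of these 4 genes the wild-type transplanted array was the highest of the 4. The list of 13 primary granule genes, such as Mpo, had a median of 0.03. Its only member apart was Plac8, the progenitor gene named above. The list median was 0.23 with quantile normalization. After normexp the late granule median was -0.24 relative to all genes.

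Dendritic cell genes had a median of -0.36 over 11, with Cd83 at 2366 against 885 units and Clec9a, of cross-presenting dendritic cells, at 130 against 84.2 units. Macrophage and monocyte genes had a median of 0.00 over 11, with 4 at least 1.5-fold higher and none lower. Lyz2, the lysozyme gene, read 403 against 725 units while the C1qb gene read 24.7 against 42.4 units. Endothelial genes, many of which stem cells share, had a median of 0.16 over 14, with 5 at least 1.5-fold higher and 2 lower. Tie1 read 171 against 416 units. Kdr was lower at 3424 against 1959 units, but another of its probes pointed the other way. Of 8 measured stromal genes Islr and Vcam1 were higher, at 19.4 against 117 units and 16.2 against 40.3 units, and Lepr, the leptin receptor gene, was lower at 1345 against 742 units. The part of other cell types in the differences was not tested.

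Several signalling systems held members that lay far apart in opposite directions. Adrenomedullin and calcitonin gene-related peptide act through Calcrl, a receptor that needs a RAMP partner to reach the surface and whose ligand preference depends on that partner. Ramp2 read 104 units in wild-type and 1141 units in Sf3b1+/- transplanted cells, a 10.9-fold difference, and 69.1 and 64.8 units in native cells. Ramp3 read 53.5 against 10.68 units, a 5.01-fold difference, and was not well above background on either native array. Its difference of -2.33, with a scanner error of 0.34, was -0.91 after normexp, while that of Ramp2 went from 3.45 to 3.16. Calcrl read 53.3 against 27.7 units and was also lower in native cells, at 64.2 against 43.8 units.

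In the TGF-beta and BMP list 10 of 28 measured genes were at least 1.5-fold higher and 4 lower. Inhba, the subunit of activin A, read 20.9 against 140 units and was below the detection call on both native arrays. Gdf15, a secreted stress factor, read 1168 against 3157 units and was also higher in native cells, at 2564 against 5401 units. Tgfb3, a ligand gene, read 47.2 against 82.7 units. Id1 and Id3, targets of BMP signalling, read 1488 against 2241 units and 639 against 1083 units. Smad7 and Skil, which encode inhibitors of the pathway, were among the 4 lower genes, at 763 against 460 units and 2345 against 1159 units. Both were lower in native cells as well. Bmp2, a ligand gene, read 141 against 55.8 units.

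Wnt genes had a median of 0.05, with Wnt10b lower at 46.7 against 18.1 units and Porcn, which lipid-modifies Wnt ligands, higher at 28.5 against 61.5 units. Notch genes had a median of 0.00, and Hes1, a target gene, read 91.2 against 59.2 units. Of 40 cytokine and growth factor receptor genes 6 were at least 1.5-fold higher and 4 lower. Il27ra, a receptor gene linked to stem cell ageing and inflammation, read 80.0 against 211 units, and Il18r1 218 against 98.2 units. Among the suppressors of cytokine signals Spry2 read 43.8 against 26.2 units. Of the channel genes Kcnj5, an inward rectifier, was furthest apart at 35.1 against 263 units, 7.50-fold, and Kcnk6 read 304 against 592 units.

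Genes tied to cell shape and matrix included several of the largest differences. Ccn1, a matrix protein gene that responds to the Hippo pathway and to immediate early signals, read 149 against 762 units, and 21.7 against 63.1 units in native cells. Axl, a receptor kinase gene, read 16.0 against 52.0 units, and Lamb2, a laminin chain gene, 12.6 against 38.6 units. Tead2, a partner of the Hippo effectors, read 119 against 253 units. Over 22 measured Hippo and matrix genes 8 were at least 1.5-fold higher and 3 lower, with a median of 0.48, which was 0.26 relative to all genes after normexp. Of 26 immediate early genes 5 were at least 1.5-fold higher, led by Arc, at 26.1 against 149 units, and Junb, at 485 against 806 units. Nr4a3 was lower at 60.7 against 32.8 units. Adhesion genes Jam3 and F11r read 92.9 against 191 units and 640 against 1047 units.

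Stress genes were mostly within 1.5-fold, with exceptions at both low and high signal. Heat shock genes Hspa1a and Hspb1 read 8338 against 16189 units and 12335 against 23071 units, and Bag3, their co-chaperone gene, 1594 against 2872 units. In native cells all 3 were lower in Sf3b1+/-, and over 17 heat shock genes the medians were 0.03 and -0.32. Of 29 measured p53 target genes 7 were at least 1.5-fold higher and none lower, with a median of 0.26. Phlda3, a p53-induced repressor of Akt, read 247 against 611 units, and Zmat3 46.1 against 84.8 units. The unfolded protein response list held Ern1, an endoplasmic reticulum stress sensor gene, at 982 against 467 units and Ppp1r15a, a phosphatase subunit gene, at 27637 against 45535 units. Metallothionein genes Mt1 and Mt2 read 8423 against 13220 units and 3081 against 6046 units. Hmox1, the heme oxygenase gene, read 191 against 330 units. Interferon response genes had a median of 0.17 over 38, with Igtp at 926 against 1642 units and Ifi27l2a at 4373 against 2787 units.

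Several chromatin and metabolic lists held few genes apart. No DNA methylation enzyme gene of 15 and no glycolysis gene of 29 was 1.5-fold apart, and of 25 Polycomb genes only Pcgf2 was, at 35.7 against 60.4 units. Of 16 measured linker and core histone genes, 1 was at least 1.5-fold higher and 4 lower. A pair of linker histone genes lay in opposite directions: H1f0, of non-dividing cells, read 35.6 against 72.9 units and H1f1 6594 against 3241 units. Fads1, a fatty acid desaturase gene, read 134 against 269 units. Of 37 measured complex I genes 2 were at least 1.5-fold lower, Ndufb3 at 6175 against 3610 units and Ndufb2 at 5348 against 3529 units, and the median was -0.27. When the list was split by role, after its values were seen, the 7 core subunits that carry electron transfer had a median of 0.15 with 6 above 0. The 30 other subunits had a median of -0.32 with 29 below 0. Bright genes lay below 0 as a whole, with a median of -0.17 over the 1074 genes of at least 5000 units. Relative to all genes, the median of the 37 complex I genes was -0.27, and -0.21 after cyclic loess. The part of signal level in the split by role was not tested. Proteasome genes had a median of -0.09 and mitochondrial ribosome genes -0.13.

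The remaining genes among the 15 furthest apart in each direction belong to no list. Tbx1, a T-box factor gene of the pharyngeal region, read 14.3 against 145 units, a 10.1-fold difference, and was not well above background on a native array. Col18a1, the collagen from which endostatin is cut, read 65.7 against 298 units, and its other probe had the same direction. Gkn3, a gastrokine gene, read 254 against 1109 units, and Evc2, a ciliary gene of Hedgehog signalling, 155 against 627 units. C2, a complement component gene, read 14.8 against 62.9 units. On the lower side Tnfsf11, the RANK ligand gene, read 46.0 against 15.1 units and Tnfrsf17, the plasma cell receptor BCMA, 26.7 against 9.41 units. After normexp these 2 differences were -0.67 and -0.39. Slc27a2, a fatty acid transporter gene, read 51.4 against 18.3 units, and Bhlha9, a limb bHLH gene, 81.4 against 21.7 units. Bcl2a1d, of an anti-apoptotic family with near-identical copies, read 291 against 106.7 units and was lower in native cells too. Rps4l, a copy of the ribosomal protein S4 gene that RefSeq lists as noncoding, read 378 against 89.0 units. Wfdc18 (321 against 86.1 units), Krtap19-5 (503 against 180 units), Golga7b (402 against 146 units), AA467197 (285 against 104 units), Nhlh1 (104 against 37.8 units) and Plekhh1 (40.0 against 14.0 units) complete the lower side.

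For genes well above background on only 1 transplanted array the difference is a bound, set against the dim array's own signal or its lowest detected signal. Sema3f, a semaphorin guidance gene, was at least 10.3-fold higher in Sf3b1+/- cells, where it read 106 units, and native cells read 20.0 and 31.9 units. Nckap1, of the actin-regulating WAVE complex, was at least 4.15-fold higher and Efemp2, a fibulin gene, at least 3.74-fold higher. Necab2, Fgd1 and Myom1 were at least 3.58-fold, 3.46-fold and 3.23-fold higher. Of the 188 genes detected in Sf3b1+/- cells alone, 164 had a bound above 1 and 65 had a bound of at least 1.5-fold. On the wild-type side all 83 had a bound above 1, and 67 of 83 had a bound of at least 1.5-fold. The Sf3b1+/- array also had more spots well above background, 51.5% against 50.2%, so the 2 counts of genes detected on 1 array alone are not on equal terms. The largest were 2900092C05Rik at least 4.73-fold lower, Spaca1 at least 3.73-fold lower, Cldn13 at least 3.57-fold lower and Dyrk4 at least 3.34-fold lower. Foxa1 and Tfcp2l1, both transcription factor genes, were at least 2.69-fold and 2.72-fold lower.

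The native pair gave part of these differences and not others. As the background for these counts, native Sf3b1+/- cells lay 1.5-fold or more above wild type at 423 of the 13033 genes and as far below at 613. Of the 267 genes at least 2-fold higher in transplanted Sf3b1+/- cells, 58 were also at least 1.5-fold higher in native cells, 189 were within 1.5-fold there and 20 were at least 1.5-fold lower. Of the 169 at least 2-fold lower, 56 were also lower, 101 were within 1.5-fold and 12 were higher. Gp1ba and Epx belonged to the shared group, while Hoxb6, Ramp2, Sult1a1 and the megakaryocyte genes Vwf and Mmrn1 were within 1.5-fold natively. Where a 2-fold gene had further detected probes, 37 of 42 such probes, from 36 genes, had the same sign, and 28 were at least 1.5-fold apart the same way.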

How the data were processed

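RNA of sorted LSK cells was hybridised to 4 single-colour arrays on 1 slide, 1 array per group. The authors deposited the scanner output, whose intensity values are background-subtracted Cy3 signals from Agilent Feature Extraction 10.7.1.1 (array design 028005, probe positions on mm9), per the file headers. They also deposited a table of linear values. Each of its columns had a correlation of 1 with the log2 processed intensity of the same array and a 75th percentile near 1.00, so the values are read as a ratio to a constant per array. The column medians were 0.0811, 0.0745, 0.0816 and 0.0747, the values were not centred by gene, and the tool behind this deposited ratio table was not given in the sources used here.

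From the processed signals, control spots and spots called outliers by the scanner software (112 to 125 per array) were left out, spots of a probe were averaged as log2 values, and each array was shifted to the 75th percentile of the probes well above background on all 4 arrays. No spot was saturated. Probes took symbols through RefSeq accessions of GRCm38.p6: 27508 of 55678 probes matched, giving 20886 genes, 16192 probes carry only a genome position, and the rest are unnamed here. A gene was read from its brightest probe. Normalizations used limma 3.58.1 in R 4.3.3, and other steps pandas 2.3.3 and numpy 2.4.6 in Python 3.11.15. The scaling was tested on simulated data. Every probe of a changed gene was given the same shift there, so the simulation could not test the choice of probe. Since the files hold the median and not the mean spot signal, normexp (offset 50) was run on the median.

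Named genes were Sf3b1, the 15 furthest apart in each direction, list members at least 1.5-fold apart on both transplanted arrays (or the furthest apart where there were none), and the largest bounds and noncoding probes. Not every gene that met this rule is described, some list members are counted but not reported here by name, and some list members nearer to equality are named for contrast. The members and lists were chosen with earlier results of these data known. The 9 alternatives were other scalings, normexp, other filters on dim probes, the median over a gene's probes and the deposited ratio table.

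No p-value is given, because 1 array per group leaves no replicate, and the number of arrays limits the precision. Between 47.7% and 51.5% of spots were well above background. The place of an array on the slide and its group cannot be told apart. Promoter sequences are from RefSeq, build GRCm38.p6.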

Additional observations from a re-analysis of the deposited data

Results flagged for a closer look

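In the results of this section the difference between Sf3b1+/- and wild-type cells had one sign in transplanted and the opposite sign in native cells. With 1 array per group, whether the 2 settings differ was not tested. For lists the values are medians over the measured members, and for genes they are log2 differences at least 1.5-fold apart in both settings. Only genes that met the naming rule and were detected on all 4 arrays are covered.

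Among the gene lists, dormancy-associated genes had a median of 0.36 after transplantation and -0.22 in native cells. Imprinted growth genes had 0.17 and -0.21, and immediate early genes 0.14 and -0.28. Interferon response genes had 0.17 and -0.11. The endothelial list had 0.16 and -0.12, the antioxidant and glutathione list 0.15 and -0.12, and the autophagy and lysosome list 0.10 and -0.11.

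Genes higher in transplanted and lower in native Sf3b1+/- cells included members of those lists. Evc2 differed by 2.01 and -0.86. Plagl1, an imprinted zinc finger gene, differed by 1.53 and -0.97, but of its 3 other detected probes only 1 had the same sign after transplantation. Ndn, the imprinted necdin gene, had 0.87 and -0.83. The retinoid genes Rarb and Cyp26b1 had 1.44 and -0.74, and 1.34 and -1.06. Plscr2, a phospholipid scramblase gene, had 1.39 and -1.04. Vcam1, an adhesion molecule gene, had 1.31 and -0.88, and Jam3 had 1.04 and -0.67. The heat shock genes Hspa1a and Hspb1 had 0.96 and -0.59, and 0.90 and -0.63. Id3 had 0.76 and -0.80.

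Of the genes covered here, 4 lay the other way. Car1, a carbonic anhydrase gene of red cell precursors, had -0.87 after transplantation and 0.80 in native cells. Tnfrsf17 had -1.50 and 0.60, Il18r1 -1.15 and 0.63, and Il12a, a subunit gene of interleukin-12, -0.64 and 0.61. Tnfrsf17 was dim, at 9.41 units in transplanted Sf3b1+/- cells, and its difference there was -0.39 after normexp, under 1.5-fold.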

How the results depend on the processing

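No paired analysis was possible because each group is 1 array and the groups share only the replicate number 1, and for the same reason no array could be left out in turn. The counts of genes at least 2-fold higher and lower, 267 and 169, were 91 and 24 after normexp, whose offset draws low signals together. They were 2133 and 23 with spike-in scaling, and 693 and 877 over 20886 genes with no filter on dim probes. With the other 6 alternatives they stayed within 1.5 times. Of the 2-fold genes, 61.2% were higher, against 72.9% with quantile normalization (334 and 124), 75.4% with cyclic loess (362 and 118), 79.1% after normexp, 98.9% with spike-in scaling and 44.1% with no filter.

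Most list medians, taken relative to all genes, moved by less than 0.20, the median scanner error of a difference. All 56 did so under 5 of the alternatives. Among these, the 75th percentile over all probes, spike-in scaling and the deposited ratio table shift each array by a constant. They could therefore not change a relative median, and only cyclic loess and the filter on both transplanted arrays could. After normexp the medians were 1.14 for Hoxb, 0.26 for Hippo and matrix genes, 0.26 for primary granule genes, -0.24 for late neutrophil granules, -0.32 for B and plasma cells and -0.47 for T and NK cells. With no filter they were 0.39 for macrophages and monocytes, -0.39 for B and plasma cells, -0.23 for late neutrophil granules, -0.19 for Hoxc and Hoxd, 0.18 for adrenomedullin and CGRP signalling, and 0.036 for aldehyde and retinoid genes. The primary granule median was 0.23 with quantile normalization, and the aldehyde and retinoid median 0.15 with the median over each gene's probes. Among the 269 reported genes that met the naming rule, a change of sign was counted only for those at least 1.5-fold apart. Such a change was seen for 2 genes, both with the median over probes: Ier5 to -0.011 and Kdr to 0.41. Normexp moved 116 of the 269 by at least their scanner error, and the median over probes moved 27. Normexp put 75 of the 269 under 1.5-fold, no filter 31, cyclic loess 19, quantile normalization 13 and the median over probes 12. The cause of these shifts was not tested.

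Signal over background limits the dim genes: the robust SD of the differences was 0.52 in the dimmest of 5 equal groups of genes and 0.31 in the brightest. The lists overlap, and no value has a replicate check.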

Other observations

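Of 37 measured chemokine and homing genes, 8 were at least 1.5-fold higher and 5 lower in transplanted Sf3b1+/- cells, with a median of 0.03. Xcl1, the lymphotactin gene, read 201 units in wild-type and 95.6 units in Sf3b1+/- cells and was also lower in native cells, at 83.4 against 35.6 units. Ccl9, a chemokine gene of myeloid cells, read 7028 against 4404 units. Esam, an endothelial and stem cell adhesion gene, read 470 against 772 units, while its native arrays were equal at 448 units. Of 27 sterol and fatty acid synthesis genes, 4 were at least 1.5-fold higher and none lower, among them Srebf2, the factor that drives sterol synthesis, at 209 against 321 units. Of 32 autophagy and lysosome genes, 2 were at least 1.5-fold higher and none lower. Tfeb, which drives lysosomal genes, read 54.9 against 91.5 units.

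Core and linker histone genes had a median of -0.24 over 16, with 4 at least 1.5-fold lower. H3f3a, of the replication-independent histone H3.3, read 26617 against 16687 units and H1f5, a linker histone gene, 20649 against 13582 units, both in the bright range where most genes were below 0. Of 17 nonsense-mediated decay genes only Rnps1, of the exon junction complex, was 1.5-fold apart, at 621 against 932 units.

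The genes at least 2-fold higher made up from 0.91% of the compared genes of chromosome 12 (4 of 439) to 3.29% of chromosome 15 (17 of 517). On chromosome 11, which holds the Hoxb cluster, they made up 3.24% (36 of 1110). Those at least 2-fold lower ranged from 0.45% on chromosome 8 (3 of 667) to 2.31% on chromosome 6 (15 of 650). These are values with no test, and the chromosomes with 3 or fewer compared genes were left out.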
